A study of Mus musculus with 12 samples.

Results

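Regulators of G protein signalling (RGS proteins) were described here through 10 genes, Rgs16, Rgs1, Rgs2, Rgs3, Rgs4, Rgs5, Rgs10, Rgs14, Rgs18 and Rgs19, in the livers of 12 male mice aged 6 weeks. A probe set belonged to a member when the platform annotation gave that gene as its only symbol. This found all 10 genes, with 23 of the 22626 probe sets on the array that are not controls. Each mouse carried a hepatocyte-specific, inducible human alpha1-antitrypsin transgene, the wild-type form in M mice and the mutant Z form in Z mice. In the groups called M off and Z off (titled M1 and Z1), mice drank water with doxycycline at 40 µg/mL from conception, and the transgene was not expressed. In M on and Z on (M4 and Z4) no doxycycline was given and the transgene was expressed. Each group held 3 arrays, called biological replicates in the titles. Doxycycline and transgene state changed together and cannot be told apart, and the same is true of the form of the protein and the mouse line that carries it. No group lacked a transgene. No probe set was named for the human transgene, so its expression was not checked here.

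RGS proteins end signals from G protein-coupled receptors. An activated receptor loads GTP onto the alpha subunit of a G protein, and the RGS domain speeds the hydrolysis of that GTP, which returns the alpha subunit to its inactive form. Small members of the family such as Rgs16, Rgs4, Rgs5 and Rgs2 consist of little more than the RGS domain. In the liver, Rgs16 is known as a gene of hepatocytes that follows feeding and time of day, and it has been put forward, in work on mice of this kind, as a marker of livers that retain the Z form of alpha1-antitrypsin. Most other members are known from blood cells or the vessel wall.

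The arrays had median signals from 38.7 to 47 on the linear scale on which the values were deposited. The median of all probe sets, taken on their mean log2 signal over the 12 arrays, corresponded to a signal of 38.5, and a probe set below it is called dim here. Hepatocyte markers were well measured in every group: none of 8 genes was dim, and Alb, which encodes albumin, read between 16217.4 and 28641.5. Of the markers of other cell types, 10 of 12 Kupffer cell and macrophage genes, 9 of 11 sinusoidal endothelial genes, 6 of 9 stellate cell genes and 5 of 8 platelet genes were above the dim level. The same held for 3 of 9 pericyte and smooth muscle genes, 4 of 7 erythroid genes, 1 of 7 B cell genes and 2 of 6 pancreatic acinar genes. The erythroid sum stood apart in Z off, at 1450 to 1900 against 461 to 607 on the other 9 arrays, and most of this was 1 gene, Alas2, with a mean of 1280 in Z off and 175 to 274 in the other groups. Of the other erythroid genes, Tfrc, Hbb-b2 and Epb42 also had their highest group means in Z off. These were 237 against 147 to 167, 80.1 against 38.2 to 47.1, and, for the dim Epb42, 16 against 3.8 to 11.7. Slc4a1 and Klf1 had their lowest group means in Z off, and Hba-a1 had its highest in Z on. Stellate cell markers summed to 1170 to 1870 in the on groups and 1880 to 2190 in the off groups. All 11 neutrophil, all 10 T and NK cell, all 5 cholangiocyte and all 9 skeletal muscle genes were dim.

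By the RefSeq annotation of GRCm38.p6, 6 of the 10 genes share chromosome 1, and Rgs14, Rgs19, Rgs3 and Rgs10 lie on other chromosomes. Rgs4 and Rgs5 are immediate neighbours among protein-coding genes, Rgs16 lies beside Rgs8, and Rgs1 lies between Rgs13 and Rgs21, with Rgs2 and Rgs18 flanking that group. RefSeq promoters were found for 7 of the members and not for Rgs1, Rgs14 and Rgs18. The 250 bases before the start of 3 members are printed: Rgs16, whose probe sets gave the widest differences between groups, and the neighbours Rgs5 and Rgs4, of which Rgs5 was above the dim level and Rgs4 was not. Capitals mark matches, on either strand, to 3 promoter motifs. The CCAAT box was searched as CCAAT. The GC box was searched as GGGCGG. The TATA box was searched as TATAAA.
Rgs16, chr1:153740103-153740352, plus strand: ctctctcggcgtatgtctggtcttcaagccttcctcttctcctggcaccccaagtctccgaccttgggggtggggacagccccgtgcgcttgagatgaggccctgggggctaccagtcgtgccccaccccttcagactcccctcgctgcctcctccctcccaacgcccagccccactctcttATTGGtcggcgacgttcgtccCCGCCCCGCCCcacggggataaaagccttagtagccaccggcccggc
Rgs5, chr1:169655251-169655500, plus strand: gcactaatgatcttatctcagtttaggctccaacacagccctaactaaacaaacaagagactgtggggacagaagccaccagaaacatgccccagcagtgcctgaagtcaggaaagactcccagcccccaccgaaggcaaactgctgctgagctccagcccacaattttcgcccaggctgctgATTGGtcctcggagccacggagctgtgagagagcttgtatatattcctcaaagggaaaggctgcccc
Rgs4, chr1:169747643-169747892, minus strand: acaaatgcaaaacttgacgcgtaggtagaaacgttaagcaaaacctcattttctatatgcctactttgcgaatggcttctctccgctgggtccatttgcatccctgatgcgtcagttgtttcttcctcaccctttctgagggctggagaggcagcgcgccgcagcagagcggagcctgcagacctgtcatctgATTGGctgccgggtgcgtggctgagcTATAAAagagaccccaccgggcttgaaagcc
All 3 hold a CCAAT box in reverse orientation, and the Rgs2 promoter holds one in forward orientation. Counted in either orientation, 33.8% of the 32851 promoters in the table hold one. GC boxes were present before Rgs16, where 2 of them share 1 base, and before Rgs2, Rgs3, Rgs10 and Rgs19 (32.7% of all promoters). TATAAA was present before Rgs4 and Rgs3 (12.4%). The E-box CACGTG (6.02% of all promoters) and the cAMP response element TGACGTCA (1.55%) were searched too and were in no member's window. A match describes letters, not binding.

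Across the 4 groups no Rgs probe set passed the test in any of 7 comparisons (limma, Benjamini-Hochberg adjusted p under 0.05 over 22626 probe sets). The signal decided how finely a change could be seen. Of the 23 probe sets 16 were dim and 7 were not: Rgs10, Rgs14, 2 of 4 for Rgs3 and 3 of 4 for Rgs5. Between arrays of 1 group the log2 signal had a median SD of 1.22 over the dim members (0.46 to 1.74) and of 0.33 over the others (0.19 to 0.63). The same medians over all probe sets were 1.01 and 0.28.

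**Figure D1:**
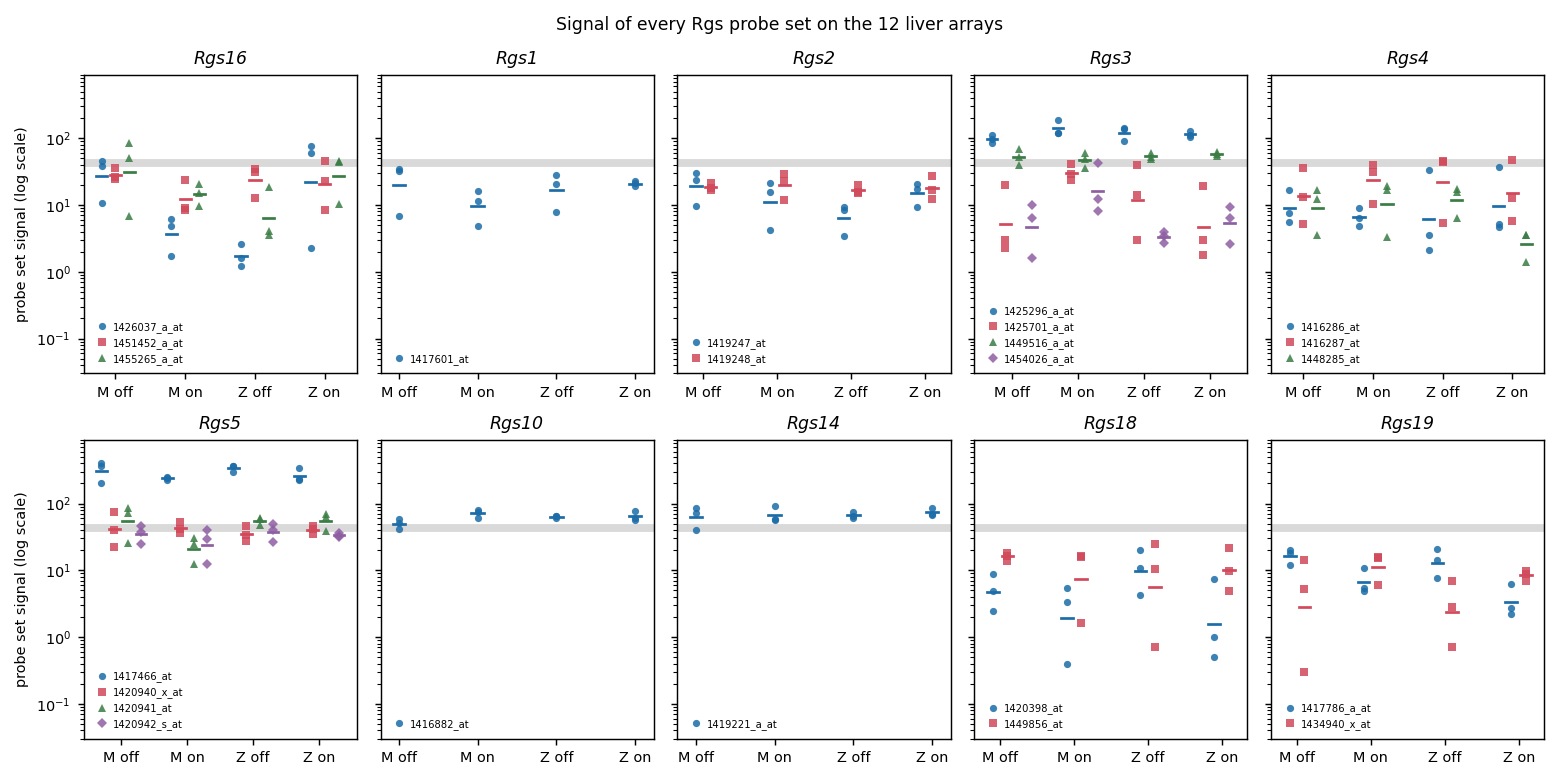
Signal of every Rgs probe set (log axis, deposited linear units) by group, 1 panel per gene, 1 point per array and a bar at the geometric mean of 3 arrays. The grey band spans the array medians, 38.7 to 47, and only Rgs3, Rgs5, Rgs10 and Rgs14 have a probe set with a mean above the dim level.

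**Figure D2:**
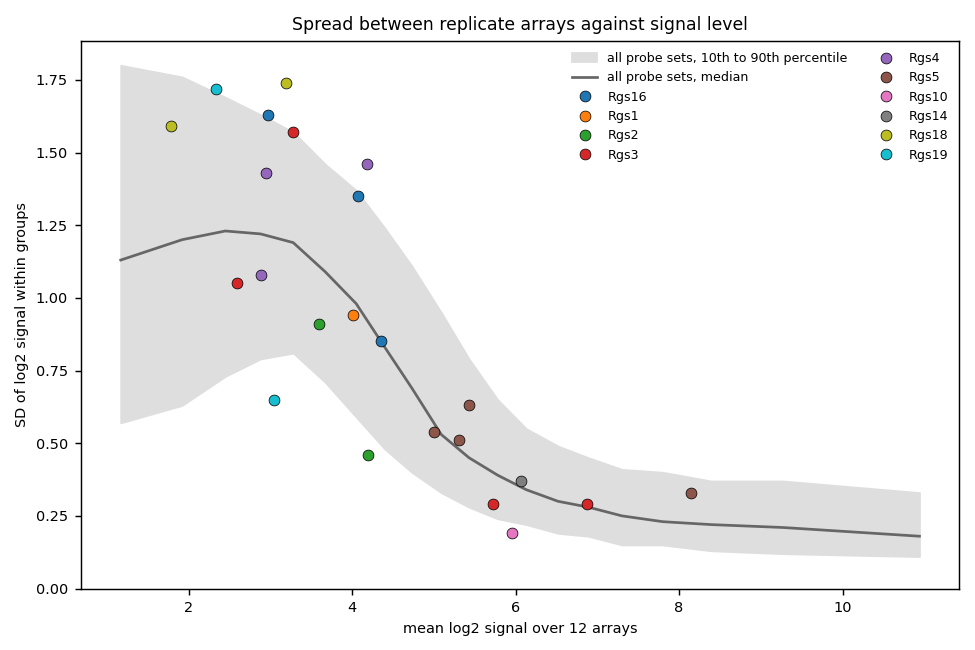
Within-group SD of the log2 signal against the mean log2 signal for the 23 Rgs probe sets (points), over the median (line) and the 10th to 90th percentile (grey) of all probe sets in 20 bins of level. Dim Rgs probe sets spread with a median SD of 1.22, the brighter ones with 0.33.

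In Z on against Z off, the comparison that asks how a liver making the mutant protein differs within its line, 0 of 23 Rgs probe sets were called, where 0.0133% of all probe sets were. At an unadjusted p under 0.05 there were 4 (17.4%, against 6.29% of all), 1 higher (2.7% of all) and 3 lower (3.59% of all), and the smallest adjusted p was 0.586. The 3 arrays of each group did not overlap on 3 of 23 (13%, against 11.8% of all). The median log2 difference over the members was 0.09, with 14 of 23 above 0 (47% of all), and over all probe sets the median was -0.03. In M on against M off, the same question for the wild-type protein, 0 of 23 were called (0% of all). Here 5 had an unadjusted p under 0.05 (21.7%, against 5.18% of all), 2 higher (2.76% of all) and 3 lower (2.42% of all), and 6 had groups that did not overlap (26.1%, against 10.5% of all). Those 6 belonged to Rgs16 and Rgs3 with 2 probe sets each, Rgs10 and Rgs19. The median difference was -0.38 over the members, with 10 of 23 above 0 (48.9% of all), and -0.01 over all probe sets. Probe sets of 1 gene share their transcript and are not independent, so these shares describe the members and were not tested.

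**Figure D3:**
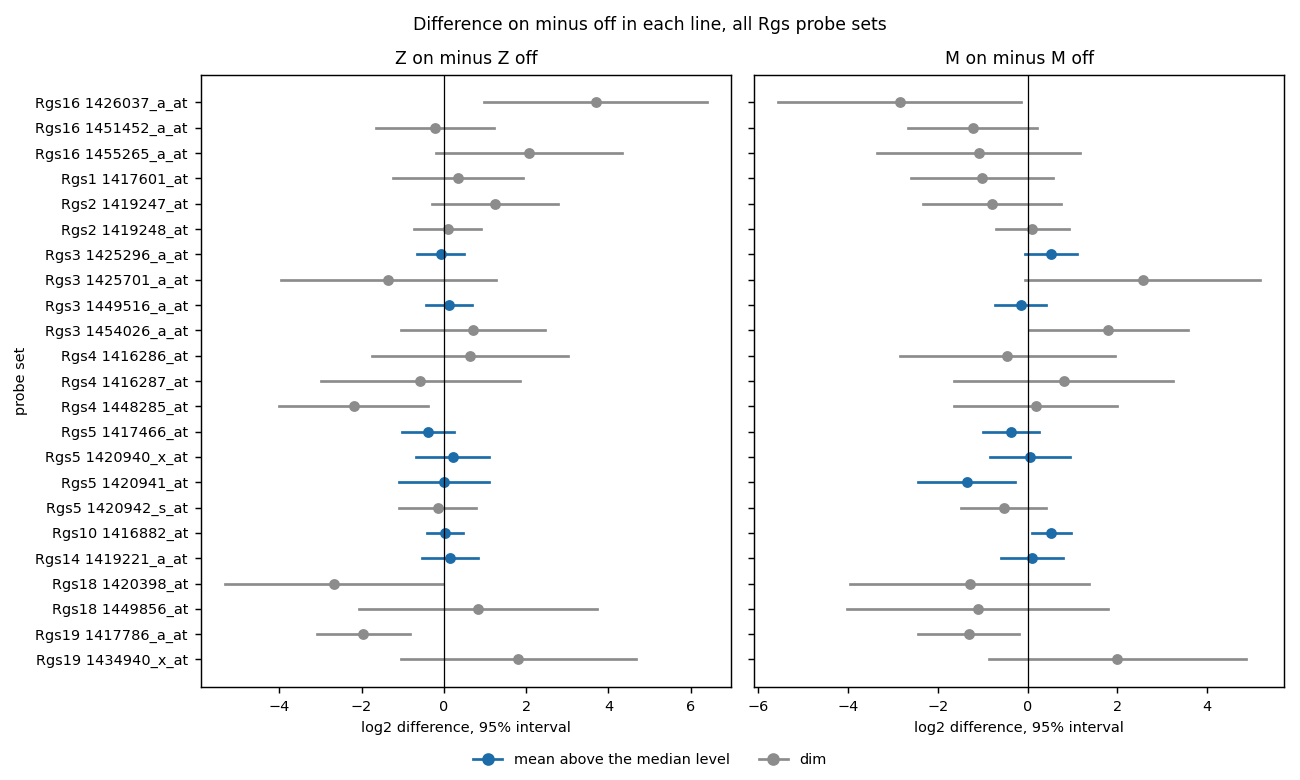
Log2 difference of on minus off with its 95% interval from limma for the 23 Rgs probe sets, in Z mice (left) and M mice (right). Blue marks the 7 probe sets above the dim level, grey the 16 dim ones. The grey intervals reach as far as 0.97 to 6.40 for Rgs16 in Z mice, while that of Rgs10 runs from -0.42 to 0.46.

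Rgs16, which acts on Gi and Gq alpha subunits, had 3 probe sets, all dim, and they disagreed. On 1426037_a_at the Z on arrays read 59.4, 77.8 and 2.3 and the Z off arrays 1.6, 1.2 and 2.6. M off arrays read 38.4, 10.9 and 46.3 and M on arrays 4.9, 6.2 and 1.7. So 2 of 3 Z on arrays stood far above Z off, the third lay among them, and all M off arrays lay above all M on and all Z off arrays. The log2 difference was 3.69 in Z mice (SE 1.21, adjusted p = 0.694) and -2.85 in M mice (SE 1.21, adjusted p = 0.942). The difference between these responses was 6.54 (SE 1.71, 95% interval 2.70 to 10.37), the smallest unadjusted p of the members in that comparison (0.00359), and its adjusted p was 0.752. Without Z on replicate 3 the Z difference was 5.31 (adjusted p = 0.109), and with 16 or 50 added to every signal it was 1.51 or 0.80. Over all alternatives its adjusted p ran from 0.109 to 0.969.

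The second Rgs16 probe set, 1455265_a_at, was high on the same animals. It read 45, 43.6 and 10.2 in Z on, 3.5, 4.1 and 18.9 in Z off, 85.8, 6.8 and 51 in M off, and 20.6, 9.8 and 15.3 in M on. The groups overlapped in both lines, with log2 differences of 2.07 in Z mice (adjusted p = 0.799) and -1.09 in M mice (adjusted p = 1). Without M off replicate 1 or 2 the latter was -0.35 or -2.18. Over the 12 arrays its log2 signal followed that of 1426037_a_at with Pearson's r = 0.81 (permutation p = 0.00229, adjusted p = 0.0481 over 21 pairs of probe sets of 1 gene) and Spearman's rho = 0.74 (permutation p = 0.0078, adjusted p = 0.147). Leaving out the 2 arrays on which 1426037_a_at lay farthest from its median, r was 0.77.

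The third, 1451452_a_at, did not follow them (r = 0.25 and 0.06, adjusted p = 0.748 and 0.859; rho = 0.28 and 0.10). It read 8.4, 45.3 and 22.8 in Z on, 34.4, 12.9 and 31.2 in Z off, 26.3, 24.5 and 35.6 in M off and 8.4, 23.8 and 9.1 in M on. Z on and Z off overlapped fully, and the Z difference on the log2 scale was -0.22 (SE 0.64, adjusted p = 0.973). M on lay below M off on every array, and the M difference was -1.22 (SE 0.64, adjusted p = 1). The log2 difference was thus below 0 on all 3 probe sets in M on against M off and in Z off against M off. The arrays overlapped on 1455265_a_at in both comparisons. On 1451452_a_at they overlapped in Z off against M off, where the difference was -0.24 (SE 0.64). For Z on against Z off the signs of the probe sets differed. The mean of the 3 probe sets differed by 1.84 in Z mice (SE 0.73, adjusted p = 0.676), by -1.72 in M mice (SE 0.73, adjusted p = 0.906) and by 3.56 between the responses (SE 1.04, adjusted p = 0.737).

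On 1455265_a_at M off replicates 1 and 3 read higher than Z on replicates 1 and 2, whereas on 1426037_a_at those Z on arrays read higher than all M off arrays. On 1451452_a_at the highest reading was that of Z on replicate 2. The summed signal of 9 skeletal muscle markers was 376 and 660 on those M off arrays, 96.1 on M off replicate 2 and between 87.2 and 191 on all others. It was 89.8 and 145 on Z on replicates 1 and 2. The part of this in the Rgs16 values was not tested. The beta-actin 3′ to 5′ ratio, a sign of RNA integrity, was 5.16 and 2.44 on those Z on arrays and 3.90 on Z on replicate 3. It was 2.53, 2.18 and 2.18 on the Z off arrays, 2.72 to 3.89 in M off and 3.09 to 4.38 in M on. The same ratio for Gapdh was 1.92, 1.33 and 1.23 in Z on and 1.49, 1.21 and 1.09 in Z off. It was 1.48 to 1.54 in M off and 1.46 to 1.60 in M on. By Gapdh, Z on replicates 2 and 3 thus lay within the range of Z off. What RNA integrity adds to the differences between groups was not tested.

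**Figure D4:**
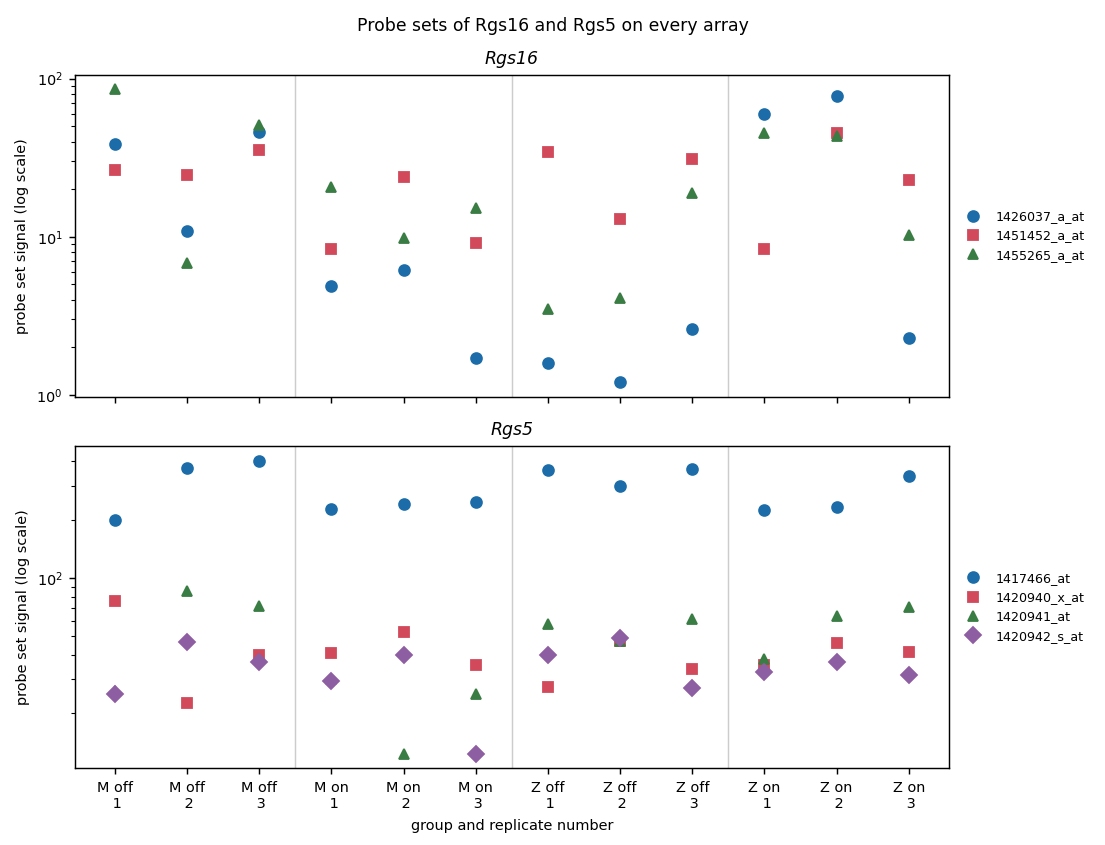
Signal of the 3 Rgs16 probe sets (top) and the 4 Rgs5 probe sets (bottom) on each of the 12 arrays (log axes), by group and replicate number. For Rgs16, 1426037_a_at and 1455265_a_at are high on M off 1 and 3 and Z on 1 and 2. In contrast, 1451452_a_at reads 8.4 on Z on 1 and has its highest reading, 45.3, on Z on 2. For Rgs5, 1417466_at stays between 200.1 and 403.9.

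Rgs5, known from pericytes and smooth muscle of the vessel wall, was measured most clearly by 1417466_at, above the array median on 12 of 12 arrays. This probe set read 360.9, 299 and 366 in Z off, against 225.7, 232.2 and 337.4 in Z on. It read 200.1, 369.3 and 403.9 in M off and 226.5, 241.9 and 248 in M on. The means were lower in the on group of both lines, 265 ± 62.7 against 342 ± 37.3 in Z mice and 239 ± 11.1 against 324 ± 109 in M mice (mean ± SD, n = 3 each), and the groups overlapped in both. The log2 differences were -0.39 (95% interval -1.01 to 0.24, adjusted p = 0.871) and -0.38 (-1 to 0.25, adjusted p = 1). The M difference was -0.69, -0.25 and -0.19 without M off replicate 1, 2 and 3.

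The probe set 1420941_at read 30, 12.3 and 25.2 in M on, lower than all arrays of the other groups except M off replicate 1, which read 25.9. M off replicates 2 and 3 read 85.8 and 71.5, Z off arrays 57.8, 47.1 and 61.2, and Z on arrays 38.2, 63.6 and 70.3. Its log2 difference was -1.36 in M mice (SE 0.49, adjusted p = 0.889) and 0.01 in Z mice (SE 0.49), and Z on lay above M on without overlap (log2 difference 1.40, SE 0.49, adjusted p = 0.61). The 2 remaining Rgs5 probe sets ranged from 22.5 to 75.9 (1420940_x_at) and from 12.3 to 48.6 (1420942_s_at). The suffix x marks probe sets with probes that can match other transcripts. Over the 12 arrays the correlation of that one with 1417466_at was negative (r = -0.63, permutation p = 0.0218, adjusted p = 0.114, and rho = -0.56, adjusted p = 0.278). The correlation of 1420941_at with 1417466_at was positive (r = 0.71, permutation p = 0.0094, adjusted p = 0.0864, and rho = 0.70, adjusted p = 0.147). Without the 2 farthest arrays r was -0.61 and 0.65. Neither correlation passed after adjustment.

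Of 9 marker genes of pericytes and smooth muscle, 0 were called in either line by limma. In each line 2 of their 15 probe sets were lower at an unadjusted limma p under 0.05 (3.59% of all in Z mice, 2.42% in M mice). On the brightest probe set of each gene, 8 were below 0 in each line (median log2 difference -0.49 in Z mice and -0.30 in M mice). Of all probe sets, 47% were above 0 in Z mice and 48.9% in M mice. The summed signal of the 9 genes on replicates 1, 2 and 3 was 831, 634 and 850 in M off and 638, 636 and 521 in M on. In Z off it was 835, 644 and 624, and in Z on 560, 631 and 499. The groups overlapped in both lines. Within no group did these sums rank the replicates as Rgs5 1417466_at did. M off replicates 1 and 3 also had the highest skeletal muscle sums, 376 and 660, whose part in these sums was not tested. Cnn1, which is made in smooth muscle, was at 13.8 or less on every array. In whole liver, fewer cells of a type and less RNA per cell cannot be told apart, and the part of these cells in the Rgs5 values was not tested.

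Rgs4, the genomic neighbour of Rgs5, was dim on all 3 probe sets, with readings from 1.4 to 46.7. On 1448285_at the Z on arrays read 3.6, 3.6 and 1.4 and the Z off arrays 17.4, 15.7 and 6.3, without overlap. M off arrays read 16.6, 3.6 and 12.3 and M on arrays 16.6, 19.6 and 3.3, so single arrays of both M groups came down to the Z on level. The log2 difference was -2.19 in Z mice (SE 0.81, adjusted p = 0.735), and against M on it was -1.96 (adjusted p = 0.703). On 1416287_at the arrays of each group spread widely, as in Z off with 46.4, 44.7 and 5.4 and in Z on with 5.7, 46.7 and 12.9. The 3 probe sets did not run together over the arrays (r from -0.14 to 0.16, adjusted p from 0.789 to 0.825; rho from -0.07 to 0.04).

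Rgs2, which acts mainly on Gq alpha subunits and is induced by hormones that raise cAMP, was dim on both probe sets. On 1419247_at Z off read 3.4, 8.4 and 9.2, below all M off arrays (30.4, 9.8 and 24) and all Z on arrays (9.3, 17.6 and 21), though 9.2 and 9.3 nearly met. M on read 15.6, 4.2 and 21.3. The log2 difference of Z off minus M off was -1.59 (SE 0.69, adjusted p = 0.636). The other probe set, 1419248_at, was steadier, with group means of 18.8 ± 2.57 in M off, 21.4 ± 8.67 in M on, 16.8 ± 2.75 in Z off and 18.7 ± 7.34 in Z on. No pair of groups stood apart. The correlation of the 2 probe sets over the arrays was positive but did not pass after adjustment (r = 0.62, permutation p = 0.0322, adjusted p = 0.135, and rho = 0.61, adjusted p = 0.278). Without the 2 farthest arrays r was 0.48.

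Rgs1 and Rgs18 are genes of blood cells, Rgs1 of lymphocytes and Rgs18 of platelets and myeloid cells. The single Rgs1 probe set, dim, read 19.2, 21.2 and 22.7 in Z on, 7.8, 20.8 and 28 in Z off, 4.9, 16.4 and 11.4 in M on and 6.8, 32 and 35.1 in M off. Z on lay above M on without overlap (adjusted p = 0.833). B cell markers, as the sum of 7 genes, read 200 to 304 in Z on and 114 to 213 in M on, and T and NK cell markers, as the sum of 10 genes, 90.6 to 119 and 109 to 146. The defining B cell marker Cd79a reached 54.2 at most and Cd3e 18.5. Their part in the Rgs1 values was not tested.

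Rgs18 was at the bottom of the scale on 1420398_at, with 1.0, 0.5 and 7.4 in Z on and 20.1, 4.3 and 11 in Z off. The M off arrays read 4.9, 8.8 and 2.5 and the M on arrays 5.4, 0.4 and 3.4. The groups overlapped in both lines, and the log2 difference was -2.67 in Z mice (SE 1.19, adjusted p = 0.792) and -1.98 averaged over both lines (adjusted p = 0.83). The other probe set, 1449856_at, read 0.7 to 24.8 with overlap everywhere and did not follow the first (r = -0.19, adjusted p = 0.789; rho = -0.26, adjusted p = 0.663). The 8 platelet markers summed to 372 to 407 in Z on and 322 to 447 in Z off.

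Rgs3, a larger member that exists in several isoforms, had 4 probe sets of unequal quality. Of these, 1425296_a_at was above the array median on 12 of 12 arrays. It read 189.2, 120 and 121.5 in M on and 113.3, 84.7 and 98.7 in M off, so that every M on array was above every M off array. The log2 difference was 0.51 (95% interval -0.06 to 1.09, adjusted p = 0.995), and 0.30 without M on replicate 1. Z on and Z off overlapped at 128.2, 102.8 and 112.3 against 89.8, 138 and 142.3, a difference of -0.08 (95% interval -0.66 to 0.49). The next, 1449516_a_at, read 35.5 to 69.4 and differed by -0.15 in M mice (95% interval -0.72 to 0.41) and by 0.12 in Z mice (-0.44 to 0.69).

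The dim Rgs3 probe set 1425701_a_at read 23.9, 41.4 and 28.9 in M on, above M off (2.3, 3 and 20.1) and above Z on (19, 1.8 and 3) on every array. Z off spread from 3 to 40.4. The log2 difference of Z on minus M on was -2.71 (SE 1.17, adjusted p = 0.719), and the responses of the lines differed by -3.91 (SE 1.65, adjusted p = 0.933). On 1454026_a_at, M on replicate 1 read 42.3 and all other arrays 12.1 or less. Its log2 difference in M mice was 1.80 (SE 0.79, adjusted p = 0.953) and, without that array, 1.10. Without M off replicate 2, which read 1.6, it was 1.03. The mean of the 4 probe sets differed by 1.18 in M mice (SE 0.42, adjusted p = 0.797) and by -0.15 in Z mice. Over the arrays the 6 pairs of these probe sets had r from -0.50 to 0.70 (adjusted p from 0.0864 to 0.81) and rho from -0.50 to 0.55 (adjusted p from 0.278 to 0.953), and the highest r fell to 0.15 without the 2 farthest arrays.

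Rgs10 and Rgs14 were each measured by 1 probe set above the dim level. Rgs10, a small member that acts on Gi alpha subunits and is abundant in immune cells, read 41, 50.7 and 57.8 in M off and 78.8, 61.6 and 74.9 in M on, without overlap. Z off read 60.6, 66.1 and 65 and Z on 61.5, 76.8 and 57.6. M off was thus the lowest group, below both M on and Z off on every array. The log2 difference was 0.53 in M mice (SE 0.20, 95% interval 0.09 to 0.97, unadjusted p = 0.0221, adjusted p = 0.889) and 0.02 in Z mice (95% interval -0.42 to 0.46). Kupffer cell and macrophage markers, as the sum of 12 genes, read 2050 to 2400 in M off and 1960 to 2700 in M on, and those groups overlapped.

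Rgs14, which besides its RGS domain holds domains that bind Ras proteins and inactive Gi, had means of 65.9 ± 23.8 in M off, 68.5 ± 20.3 in M on, 66.8 ± 6.82 in Z off and 74.1 ± 9.57 in Z on (n = 3 each). All groups overlapped. The log2 difference was 0.15 in Z mice (95% interval -0.54 to 0.83) and 0.09 in M mice (-0.60 to 0.78).

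Rgs19, a regulator of Gi and Gz alpha subunits, gave the smallest unadjusted p of the members in Z on against Z off, on a dim probe set. On 1417786_a_at Z on read 2.7, 2.2 and 6.3 and Z off 20.5, 7.6 and 14.1, and M on read 4.9, 5.5 and 10.9 and M off 12.1, 20.1 and 18.4. In both lines every on array was below every off array of its line. The log2 differences were -1.96 in Z mice (SE 0.50, unadjusted p = 0.00314, adjusted p = 0.586), -1.31 in M mice (SE 0.50, adjusted p = 0.894) and -1.63 averaged over the lines (SE 0.36, 95% interval -2.43 to -0.84, adjusted p = 0.386). The other probe set, 1434940_x_at, pointed the other way. It read 9.7, 6.8 and 8.9 in Z on, 0.7, 6.9 and 2.8 in Z off, 6.1, 15.1 and 15.8 in M on and 14.3, 0.3 and 5.3 in M off, with log2 differences of 1.81 (SE 1.28, adjusted p = 0.871) and 2.00 (SE 1.28, adjusted p = 1). Without Z off replicate 1 the first was 0.93, and without M off replicate 1 or 2 the second was 3.17 or 0.38. Over the arrays the correlation of the 2 was negative but did not pass (r = -0.56, permutation p = 0.0559, adjusted p = 0.196, and rho = -0.53, adjusted p = 0.278). Without the 2 farthest arrays r was -0.66. The mean of the 2 probe sets differed by -0.07 in Z mice (SE 0.60) and 0.35 in M mice (SE 0.60).

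Of the 7 members with several probe sets, only Rgs2 had probe sets of the same sign in Z on against Z off, and only Rgs16 and Rgs18 in M on against M off. Rgs3, Rgs4 and Rgs5 had probe sets of both signs in each of the 7 comparisons. Signs were counted whatever their size, and some rest on values near 0. Examples are -0.01 (SE 0.40) for Rgs5 1417466_at in the difference of the responses and -0.02 (SE 0.18) for Rgs3 1449516_a_at in on against off. How often the probe sets of other genes differ in sign was not counted.

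The remaining comparisons set the lines against each other. In Z on against M on, 0 of 23 Rgs probe sets were called (0.00884% of all), 3 had an unadjusted p under 0.05 (6.85% of all) and 3 had groups apart (13%, against 12.1% of all). In Z off against M off, 0 of 23 were called (0.0707% of all), 2 had an unadjusted p under 0.05 (7.73% of all) and 3 had groups apart (13%, against 15.1%). Both of the 2, Rgs16 1426037_a_at (log2 difference -3.97, SE 1.21, adjusted p = 0.473) and Rgs2 1419247_at, were lower in Z off, and the third probe set with groups apart was Rgs10, higher in Z off. For the difference of the responses, 0 of 23 were called (0% of all) and 2 had an unadjusted p under 0.05 (5.18% of all), Rgs16 1426037_a_at and Rgs3 1425701_a_at. Averaged over the states, Z against M gave 0 of 23 calls (0.0884% of all) and no unadjusted p under 0.05 (9.09% of all). Averaged over the lines, on against off gave 0 of 23 calls (0.00884% of all) and 3 unadjusted p-values under 0.05 (5.84% of all), those of Rgs19 1417786_a_at, Rgs18 1420398_at and Rgs3 1454026_a_at. These comparisons share arrays with the ones within lines.

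The rest of the pathway was read from 6 further lists, in which no probe set was called in any of the 7 comparisons. Named from each list are the 2 probe sets with the smallest p-values (limma) in Z on against Z off. The other RGS genes of the family had 7 measured members, of which, on the brightest probe set of each gene, 2 read higher and 5 lower in Z on than in Z off, with a median log2 difference of -0.58 from mostly dim signals. Rgs6 had means of 3.87 ± 1.48 with the Z form expressed and 11.4 ± 1.21 without it, and the arrays did not overlap (limma, adjusted p = 0.745). On Rgs20 they overlapped (adjusted p = 0.851). Other genes with an RGS domain or tied to RGS function, such as G protein-coupled receptor kinases, had 5 of 14 higher and 9 lower (median -0.16). Ric8a, a chaperone of G alpha subunits, had a mean of 23.4 ± 18.2 in Z on against 61.2 ± 19.4 in Z off (log2 difference -1.60, adjusted p = 0.671), and Grk4 was dim at 5.80 ± 3.82 and 2.57 ± 2.02. The Z groups overlapped on both.

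G alpha subunits, on which RGS proteins act, had 10 of 14 higher and 4 lower (median 0.20). Gna15, a Gq-type subunit of blood cells, had a mean of 48 ± 9.52 in Z on against 20.4 ± 5.23 in Z off without overlap (log2 difference 1.25, SE 0.29, adjusted p = 0.533), and 44.8 ± 13.3 in M on and 32.5 ± 6.30 in M off. Gnat1, the alpha subunit of rod photoreceptors, differed by 0.67 without overlap (adjusted p = 0.791). G beta and gamma subunits had 6 of 13 higher and 7 lower (median -0.01). Gnb5, the beta subunit that pairs with RGS proteins of the Rgs7 type, differed by -0.65 without overlap (adjusted p = 0.745), and Gng12 by 0.53 with overlap (adjusted p = 0.798). Without Z off replicate 1 these were -0.43 and 0.27. Over all probe sets the median was -0.03.

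Effectors of G proteins, adenylyl cyclases and phospholipases C beta, had 4 of 11 higher and 7 lower in Z on than in Z off (median -0.08). Adcy9, an adenylyl cyclase, had a mean of 165 ± 17.7 in Z on against 114 ± 16.1 in Z off without overlap (adjusted p = 0.694), while the M groups read 216 ± 26.3 (on) and 229 ± 11.9 (off). All 6 Z arrays were below all 6 M arrays, as on 0.544% of all probe sets. The log2 difference of Z off minus M off was -1.02 (SE 0.18, adjusted p = 0.127), and that of Z minus M averaged over the states was -0.70 (SE 0.13, adjusted p = 0.115). Both passed under 3 alternatives: 50 added to every signal (adjusted p = 0.0206 and 0.0152), only probe sets above the median level (0.024 and 0.0175), and an intensity trend with robust variances (0.0261 and 0.0161). Over all alternatives the first ran from 0.0206 to 0.424 and the second from 0.0152 to 0.28. Plcb4 was at 4.00 or less in every group mean.

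Receptors of liver cells that signal through G proteins had 6 of 17 higher and 11 lower (median -0.06). Avpr1a, the vasopressin receptor of hepatocytes that couples to Gq, was lower in the on group of both lines on both of its probe sets, without overlap. On 1418604_at the means were 91.8 ± 21.9 in Z on against 158 ± 19.8 in Z off, and 66.2 ± 5.45 in M on and 123 ± 30.9 in M off. The log2 differences were -0.81 in Z mice (SE 0.25, adjusted p = 0.671), -0.87 in M mice (SE 0.25, adjusted p = 0.719) and -0.84 averaged over the lines (SE 0.18, adjusted p = 0.382). On 1418603_at they were -0.80, -0.58 and -0.69, and the first was -0.53 without Z on replicate 1.

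Over the 12 arrays, the 5 probe sets of other genes whose log2 signal was most like that of Rgs16 1451452_a_at, the Rgs16 probe set taken as its brightest, were those of Slc22a5, Tmem179b, Gapdhs, C1qa and Ctnnbip1, chosen from 10385 above the dim level. Their Pearson correlations lay between 0.79 and 0.82, which describes a ranking over 12 arrays of a dim probe set. C1qa, a complement gene of Kupffer cells, read 88.4 on M on replicate 1 and 229.3 on Z on replicate 2, the lowest and the highest of its arrays, and on those arrays the Rgs16 probe set read 8.4 and 45.3. On the same M on replicate 1 and Z on replicate 2, 1426037_a_at read 4.9 and 77.8 and 1455265_a_at read 20.6 and 43.6. The probe sets parted on Z on replicate 1, where 1451452_a_at read 8.4, 1426037_a_at 59.4 and 1455265_a_at 45.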

How the data were processed

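Total RNA of 12 livers was purified with TRIZOL and a column and hybridised to 1-colour arrays, per the labels' protocols. The deposited intensity values are linear probe set signals. The submitters' processing notes name RMA, but RMA gives log2 values of equal distribution, which these are not. Software, scale factors and detection calls are not given in the sources used here, so dim signals carry an unknown background.

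The 64 control probe sets were left out, 1 value of 0 was set to 0.1, and log2 was taken. The model was limma 3.58.1 (R 4.3.3; lmFit, eBayes, two-sided) with 1 mean for each title group of 3 arrays, and the Benjamini-Hochberg method was applied across 22626 probe sets. Intervals (95%) use the moderated spread. Probe set pairs of a gene were correlated with 100000 permutations. The 2 farthest arrays of a pair were those farthest from the median log2 signal of its lower-numbered probe set. Distances on the other probe set were not used. The fit was tested on simulated data. Members, lists and the rule for named genes (all members; of each further list, called genes, otherwise the 2 smallest p-values in Z on against Z off; the 5 genes most like Rgs16) were chosen with earlier results of these data known. Motifs and promoters were chosen after the values were seen. Gene symbols came from the platform annotation and were looked up in RefSeq by gene ID, which changed 0 of them. The promoter sequences are RefSeq's, GRCm38.p6. Nothing says whether the 3 replicates shared a litter or an array day, so p-values measure the spread between these arrays.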

Additional observations from a re-analysis of the deposited data

How the results depend on the processing

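Alternatives were quantile normalization, centring arrays on their median, 16 or 50 added to every signal, only probe sets above the median level, an intensity trend with robust variances, only the groups compared, a replicate block, 1 probe set per gene or a gene's probe sets averaged, and leaving out each of 12 arrays. In all 22 the count of called Rgs probe sets (or genes) was 0 in every comparison run, and the smallest adjusted p of a member was 0.109.

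The replicate block (replicate number as a term) changed no call of a member. The numbers were not taken as pairs in the main fit. Of 18 same-numbered pairs of arrays 3 had deviations correlated above 0.1 (range -0.08 to 0.16), and 6 of 12 arrays correlated best with their own number. Differently numbered pairs of arrays from different groups ranged from -0.18 to 0.16. The summed hepatocyte markers, however, fell from replicate 1 through 2 to 3 in every group. From replicate 1 to 3 they went from 117000 to 82600 in M off and from 128000 to 80900 in M on. In Z off they went from 101000 to 86000 and in Z on from 107000 to 84600. So the numbers may share something, which was not tested. Over all probe sets the block moved the calls from 3 to 1 in Z on against Z off, from 2 to 0 in Z on against M on, from 16 to 6 in Z off against M off, from 20 to 12 in Z against M and from 2 to 1 in on against off, and left 0 in M on against M off and in the difference of the responses. The intensity trend with robust variances gave 8, 22, 51, 110, 17, 8 and 2 in the same order. Leaving out 1 array gave 1 to 5, 0 to 5, 1 to 11, 7 to 18, 0 to 5, 0 to 2 and 0 to 2.

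Signs turned under these alternatives. With 50 added to every signal, Rgs5 1420940_x_at read -0.02 in M mice instead of 0.05. Averaging a gene's probe sets takes the mean of their log2 differences. A probe set whose sign is opposite to that mean therefore turns by construction. This gave 1.84 for Rgs16 in Z mice, against 1451452_a_at at -0.22. It gave -0.15 in Z mice and 1.18 in M mice for Rgs3, against 1449516_a_at, and -0.08 and -0.56 for Rgs5, against 1420940_x_at and, in Z mice, 1420941_at. For Rgs19 it gave -0.07 in Z mice, against 1434940_x_at, and 0.35 in M mice and 0.14 over both lines, against 1417786_a_at. Leaving out 1 array in Z on against Z off gave -0.80 to 0.42 for Rgs16 1451452_a_at, -0.30 to 0.03 for Rgs3 1425296_a_at, -0.16 to 0.28 for Rgs5 1420941_at and -0.10 to 0.11 for Rgs10. In M on against M off it gave -0.35 to 0.05 for Rgs3 1449516_a_at, -0.38 to 0.50 for Rgs5 1420940_x_at and -0.24 to 0.32 for Rgs14. Apart from the averaging, the cause of these turns was not tested. Detection calls were not used here, so how far the dim probe sets lie above background is unknown.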
